A study of Caenorhabditis elegans with 9 samples.

Results

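The regions described here are the DNase I hypersensitive sites (DHS) of Caenorhabditis elegans that were called both in embryos and in larvae held in L1 arrest, and that stood far higher in the embryo's ranking than in the larva's. Each embryo DHS was paired with the L1 DHS it overlapped most, which gave 21777 pairs among 41825 embryo and 23670 L1 DHS. Within each stage the deposited scores of the pairs were turned into percentiles, with 0 for the lowest and 100 for the highest score. The sites were selected on these score percentiles: a pair was taken when its embryo percentile exceeded its L1 percentile by 30 points or more. This held for 1160 of the 21777 pairs, or 5.33%, and they are called the embryo-high sites. The difference of the percentiles, embryo minus L1, is called the gap.

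Both stages came from wild-type animals of the N2 strain, grown as synchronous populations. Embryos of about 40 cells gave 4 replicates, and larvae kept in L1 arrest, the halted state of animals that hatch without food, gave 5 replicates. Reads were 50 bp long in 3 embryo and 3 L1 replicates, and 76 bp long in 1 embryo and 2 L1 replicates. The lists used here are merged over the replicates of a stage, so each site has a single value per stage with no replicate spread. No test against that spread could be made, no p-value is given, and depth per site is unknown. Fed L1 larvae were not sampled, so arrest and the larval stage itself cannot be told apart.

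DNase I cuts DNA where nucleosomes are displaced, so hypersensitive sites mark promoters, enhancers and other bound elements. A transcription factor on such a site shields a short stretch from cutting, which is read as a footprint. In the early embryo cells divide rapidly and receive their lineage fates, whereas in L1 arrest cells have left the division cycle and most tissues are differentiated. The nuclei came from whole animals, so fewer cells with an open site and less opening per cell cannot be told apart.

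Among the shared pairs, the embryo-high sites were of middling rank in the embryo and of low rank in the larva. The percentiles leave out DHS without a partner, so they are not ranks among all 41825 embryo or 23670 L1 DHS. The embryo percentile of the embryo-high sites had a median of 56.1, with the middle 50% of sites between 47.0 and 65.4. Their median L1 percentile was 16.0, with the middle 50% between 7.28 and 25.7. These values are set by the selection and are given as a description. The gap had a median of 37.2 points and reached 72.2. An L1 percentile under 20 was held by 697 of the 1160 sites (60.1%), and an embryo percentile of 40 to 60 by 589 (50.8%). Only 27 embryo-high sites lay at an embryo percentile of 80 or more. In the reverse direction, 284 of the 1594 sites ranking 30 points or more higher in L1 lay at an L1 percentile of 80 or more. The percentiles of the stages correlated with a Pearson r of 0.770 over the 21777 pairs, which come from the same merged libraries. The score had a median of 272 in the embryo list and 167 in the L1 list at these sites, but the labels do not state how the score was scaled, so it was only ranked within a list. The lowest 25% of L1 scores ran from 154 to 176, and in that narrow range a small difference in score moves a site by many percentile points.

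**Figure D1:**
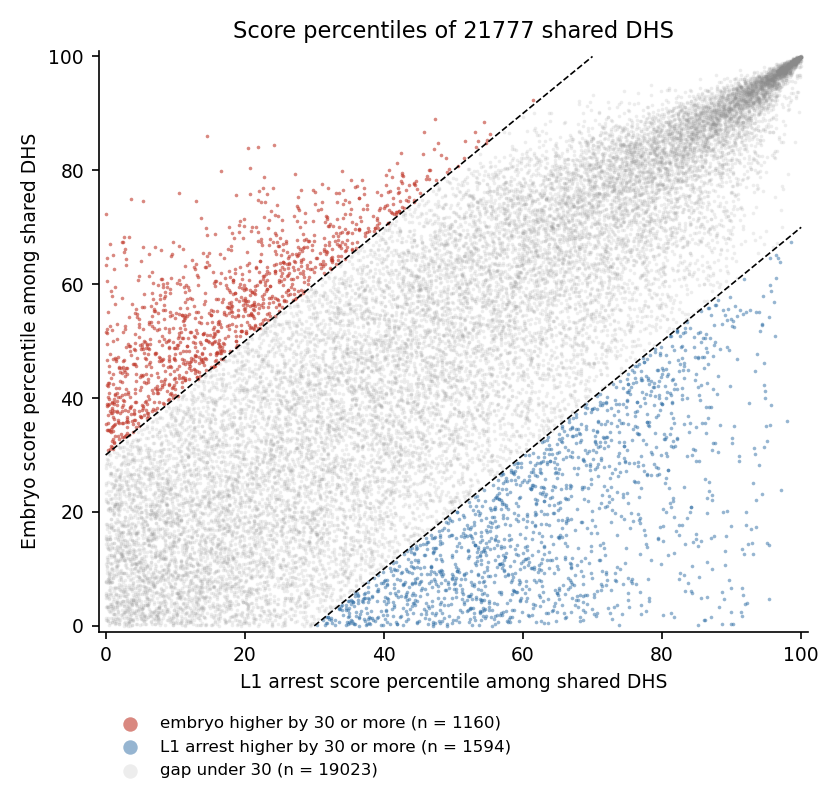
Embryo score percentile (vertical axis, 0 to 100) against L1 arrest score percentile (horizontal axis, 0 to 100) for each of the 21777 shared DHS, with dashed lines at gaps of 30 points in either direction. The 1160 embryo-high sites (red) fill the upper left, mostly at L1 percentiles under 40, the 1594 sites 30 points or more higher in L1 (blue) reach far to the right, and the strongest sites of both stages meet in the upper right corner.

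The reverse pattern was more common. A gap of 30 points or more in favour of L1 was found at 1594 pairs, or 7.32%, and these L1-high sites had a median gap of -41.1. Over all pairs the gap had a median of 0.859 and ran from -90.8 to 72.2. The limit cuts through a continuous spread. Just inside it were an intron site of dgk-1, a diacylglycerol kinase (gap 30.01), sites of C06G1.6 (30.02), acs-1 (30.03) and npr-40 (30.03), and an exonic site on chromosome X (30.05). Just outside were 2 exonic sites (29.999 and 29.98) and sites of ppfr-1 (29.97), cnp-2 (29.96) and lgc-31 (29.95).

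The widest gaps stood beside genes of many kinds. An intron site of tmem-189, whose mammalian counterpart makes plasmalogen lipids, at chrI:12002181-12002330 (ce10, as all coordinates here) had an embryo percentile of 72.2 and an L1 percentile of 0.0023, tied for the lowest L1 rank of all pairs. It carried 1 footprint in the embryo and none in L1, and the L1 site was offset so that 90 bp overlapped. The site 546 bp from rga-2, a gene that acts in the embryonic epidermis, at chrI:11986201-11986350 stood at 74.6 in the embryo and 5.35 in L1, with 2 embryo footprints and none in L1. An intron site of the hexokinase gene hxk-2 stood at 67.0 in the embryo and 0.673 in L1. Both tmem-189 and hxk-2 also had a shared site with the opposite gap, at -36.7 and -58.3 points. The intron site of lad-2, which encodes a neuronal adhesion molecule of the L1CAM family, stood at 68.3 in the embryo and 2.62 in L1.

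Among noncoding sites whose gene has a symbol, the 20 widest gaps included genes of DNA replication, neuron fate and axon guidance. The intron site of mcm-10, a DNA replication factor, at chrIII:11321901-11322050 was ranked at 84.4 in the embryo and 24.1 in L1. A site 1400 bp from pag-3, which encodes a zinc finger factor of neuroblast lineages, at chrX:14955921-14956070 stood at 64.1 in the embryo and 5.15 in L1. It held 4 footprints in the embryo and none in L1. A nearer pag-3 site, 480 bp from the gene, was also embryo-high (56.1 in the embryo, 17.4 in L1), while an intron site of the same gene stood at 91.6 in the embryo and 90.8 in L1. Within pag-3 the gap thus ran from 0.794 to 59.0 points over its 5 shared sites.

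The intron site of sax-3, the Robo receptor for the guidance cue Slit, stood at 69.9 in the embryo and 14.4 in L1, with 2 embryo footprints and none in L1. An intron site of mab-3, a DM-domain factor of sexual differentiation, stood at 60.6 in the embryo and 0.223 in L1, but the other 4 shared sites of mab-3 leaned to L1, with gaps of -4.02 to -15.0. A site beside the homeobox gene ceh-89 stood at 76.9 in the embryo and 22.6 in L1. The ribosomal protein gene rpl-33 had an intron site at 65.3 in the embryo and 9.57 in L1 that carried no footprint in either stage. An intron site that the table assigns to both acsd-1 and lgc-46 stood at 75.9 in the embryo and 10.6 in L1. The other genes among the 20 were ncx-2, nstp-5, pitr-4, homt-1, pab-2, daf-16, tsct-2, srsx-8 and lipl-6, and the gap of the 20 sites ran from 54.3 to 72.2 points. Most of these 20 lay in introns of their gene, and of those outside introns only the lipl-6 site lay within 300 bp of its gene. Genes without a symbol and exonic sites had gaps as wide. The second widest of all, 71.5 points, was 36 bp from F08G2.10, and the site stood at 86.0 in the embryo and 14.6 in L1. Sites within 300 bp of F08G2.9, C47F8.9 and T20F5.5 had gaps of 63.5, 59.6 and 58.1 points.

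The highest embryo rank of any embryo-high site belonged to a site within 300 bp of sas-5, a centriole duplication factor, which was picked after its values were seen. It stood at 92.3 in the embryo and 61.5 in L1, so its gap of 30.9 was close to the limit.

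By location, the embryo-high sites were spread over the genome's parts much as all pairs were, with a larger exonic and a smaller intergenic share among the lower-ranked pairs. Exonic sites, which the deposited noncoding list does not hold, made up 454 of 1160 embryo-high sites (39.1%, 95% exact binomial interval 36.3 to 42.0) and 34.0% of all pairs. Intergenic sites made up 272 (23.4%, 21.0 to 26.0) and 27.1% of all pairs. Intron sites made up 294 (25.3%, against 26.2% of all pairs), and gene-near sites, which lay within 300 bp of a gene outside its introns, 140 (12.1%, against 12.7%). The deposited distance does not tell the start of a gene from its end, so gene-near sites are not all promoters. The intervals cover counting error only, since sites of a merged list are not replicates and the differences were not tested. The L1-high sites went the other way by more, with 14.6% exonic and 40.2% intergenic.

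The shares depended on rank. Among pairs whose summed percentiles were at or above the median, 30.6% of 229 embryo-high sites and 32.4% of all pairs were exonic, 27.1% and 28.7% intergenic, and 15.7% and 17.2% on chromosome X. Under the median, 41.2% of 931 embryo-high sites and 35.5% of all pairs were exonic, 22.6% and 25.6% intergenic, and 19.9% and 17.2% on X. Among sites at an embryo percentile of 40 to 60, 39.6% of the embryo-high sites were exonic and 32.3% of the other pairs. Between 60 and 80 they were 39.6% of the embryo-high sites and 31.2% of the other pairs. Among the 27 embryo-high sites at 80 or more, 3 were exonic (11.1%) and 10 were gene-near (37.0%), against 37.6% and 12.4% of the other pairs. The widest exonic gap, 71.2 points, was at chrI:1095661-1095810, which stood at 74.9 in the embryo and 3.67 in L1.

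Chromosome V held a smaller share of the embryo-high sites than of all pairs. It carried 153 embryo-high sites (13.2%, 11.3 to 15.3) and 18.3% of all pairs, so that 3.83% of its pairs were embryo-high. Its intergenic pairs had the lowest share, 27 of 1055 (2.56%). Chromosome I carried 227 (19.6%, 17.3 to 22.0) and 15.9% of all pairs, and X 221 (19.1%) and 17.2%. The middle part of a chromosome, from 20% to 80% of its length up to the last DHS of either stage, held 63.0% of the embryo-high sites (60.2 to 65.8) and 59.7% of all pairs.

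**Figure D2:**
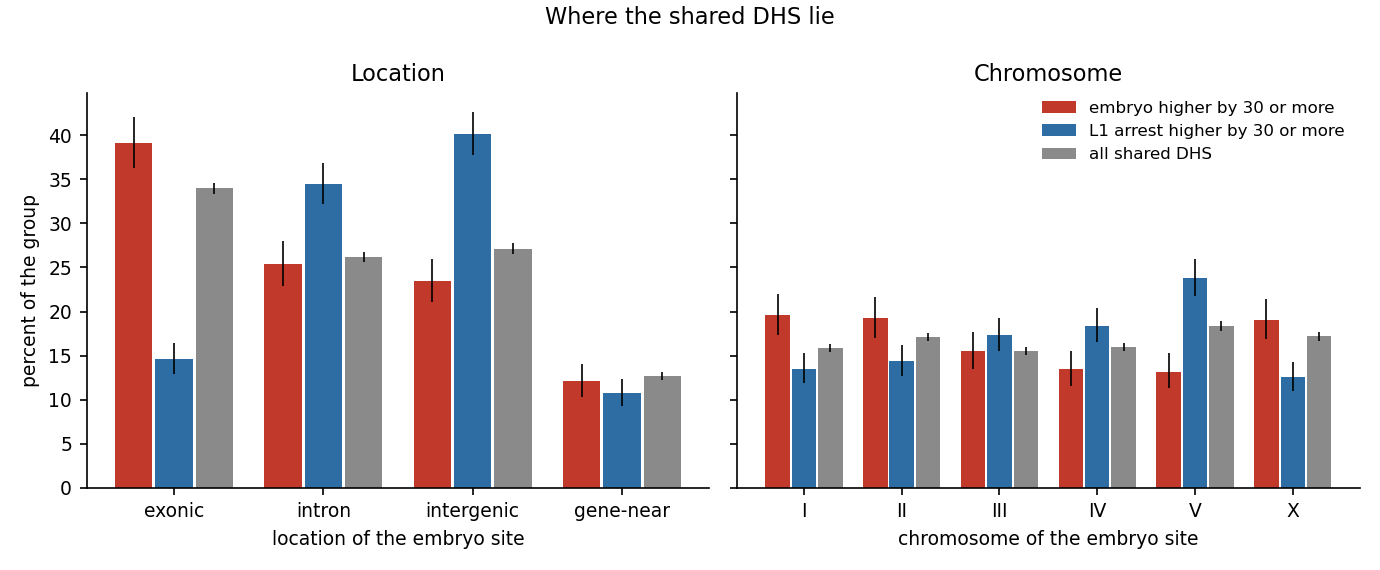
Percent of each group of shared DHS by location (left) and chromosome (right) of the embryo site, for the 1160 embryo-high sites (red), the 1594 L1-high sites (blue) and all 21777 pairs (grey), with 95% exact binomial intervals for counting error. Exonic sites made up 39.1% of the embryo-high sites, 14.6% of the L1-high sites and 34.0% of all pairs, and chromosome V held 13.2%, 23.8% and 18.3% of them.

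At embryo-high sites an L1 footprint was less common than over all noncoding pairs, while an embryo footprint was about as common. Footprints come from the same reads as the scores, so they are no independent support. They were called only in noncoding DHS and describe the 706 noncoding embryo-high sites. An embryo footprint lay in 644 of the 706 (91.2%) and in 92.0% of all 14382 noncoding pairs. An L1 footprint lay in 490 of the 706 (69.4%) and in 84.6% of all noncoding pairs. The noncoding L1-high sites held an embryo footprint in 90.4% and an L1 footprint in 93.2%. Their mean number per site was 2.23 in the embryo and 2.59 in L1. For the embryo-high sites the mean was 2.67 in the embryo and 1.25 in L1, and for all noncoding pairs 2.75 in the embryo and 2.11 in L1. A footprint in the embryo alone was found at 23.5% of the embryo-high sites and 10.2% of all noncoding pairs. Of the embryo footprints within the shared interval, 698 of 1719 (40.6%, 38.3 to 43.0) overlapped an L1 footprint at embryo-high sites, and 63.6% did so over all pairs.

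At like L1 ranks under 40 the shares lay closer together. At L1 percentiles under 20, 67.1% of the 413 embryo-high sites and 70.0% of the other pairs held an L1 footprint, and between 20 and 40 it was 72.8% of the embryo-high sites and 77.1% of the other pairs. Between 40 and 60, where 46 noncoding embryo-high sites lay, it was 71.7% of these and 85.2% of the other pairs. Intron sites had the lowest share, with an L1 footprint at 54.8% of embryo-high intron sites and 76.8% of all intron pairs. It lay in 82.4% of intergenic embryo-high sites and 93.4% of all intergenic pairs, and in 75.0% of gene-near embryo-high sites and 81.9% of all gene-near pairs. Where the full 150 bp were noncoding, an L1 footprint lay in 81.6% of 534 embryo-high sites and 92.9% of all such pairs.

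**Figure D3:**
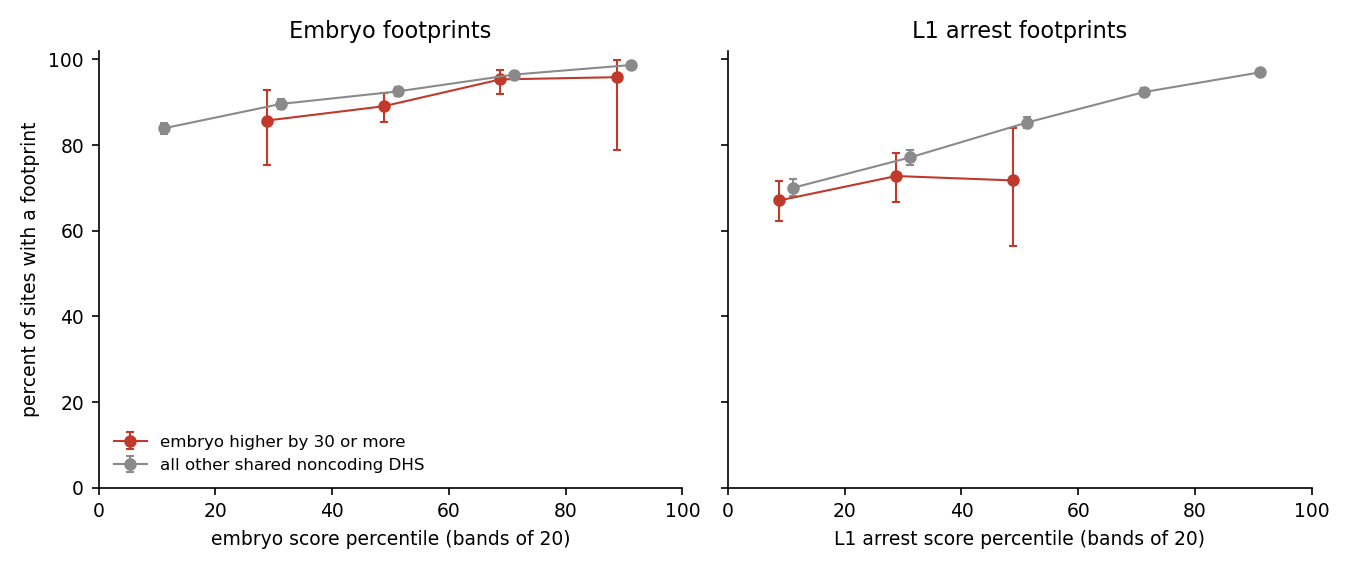
Percent of noncoding shared DHS with at least 1 footprint in the embryo (left, by bands of 20 embryo percentiles) and in L1 arrest (right, by bands of 20 L1 percentiles), for embryo-high sites (red) and all other pairs (grey), with 95% exact binomial intervals. The shares of the other pairs climb with rank in both panels, and at L1 percentiles under 20 the embryo-high sites stand at 67.1% and the other pairs at 70.0%.

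The embryo-high sites were mostly scattered. Linked at 5 kb or less, 944 stood alone, 91 clusters held 2, 10 held 3 and 1 held 4. The cluster of 4 lay at spat-3, which encodes a RING-domain protein related to the ubiquitin ligases of Polycomb complexes, at chrX:4597521-4600870, where 4 of the 6 shared sites were embryo-high and 3 of those were exonic, with gaps of 32.0 to 39.4. At plk-1, the Polo-like kinase that drives mitosis, all 3 shared sites within chrIII:8101101-8105910 were embryo-high, 1 of them exonic. The site 99 bp from the gene stood at 54.5 in the embryo and 24.3 in L1, and the site 1685 bp from it at 49.0 in the embryo and 16.7 in L1. At T20F5.5 on chromosome I 3 of 3 sites were embryo-high, with gaps of 31.8 to 58.1. The spat-3 and T20F5.5 clusters were picked after their values were seen.

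Neighbouring sites leaned the same way over short distances. The gaps of adjacent shared sites under 500 bp apart correlated with r = 0.506 over 2679 neighbours, and beyond 5 kb with r = 0.0623 over 6250. All of these sites share the same merged libraries, so the values are descriptive. An embryo DHS with no L1 partner lay within 1 kb of 420 embryo-high sites (36.2%, 33.4 to 39.0), of 29.9% of all pairs and of 22.8% of the L1-high sites. The order held in each location. The share was 43.4% for exonic embryo-high sites and 35.3% for all exonic pairs, and 28.7% for intergenic embryo-high sites and 23.0% for all intergenic pairs.

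The deposited gene table tied the 706 noncoding embryo-high sites to 663 of the 7796 genes with a shared noncoding site, or 8.50%. An L1-high site was found at 1101 genes, or 14.1%, and 43 genes had both kinds. Of the 663 genes, 615 had 1 embryo-high site, 45 had 2 and 3 had 3. Genes with more shared sites had more chances to hold one, and the share of genes with an embryo-high site was 4.82% among genes with 1 shared site and 34.0% among genes with 7 or more. The remaining shared sites of these genes, more than 1 kb from an embryo-high site, had a median gap of 2.00 and lay above 0 in 60.6% of 1044 cases (57.6 to 63.6), against -0.689 and 47.1% of 12332 sites at other genes.

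Of the 3215 genes with 2 or more shared noncoding sites, 12 had only embryo-high sites among them. This number was not tested against the 4.91% of all noncoding pairs that were embryo-high. One of the 12 genes was bar-1, the β-catenin of canonical Wnt signalling. The site 36 bp from the gene, at chrX:7170661-7170810, stood at 56.8 in the embryo and 18.1 in L1, and the site 2696 bp away at chrX:7173321-7173470 at 55.9 in the embryo and 10.7 in L1. The farther site held 2 footprints in the embryo and none in L1. Of the other 11 genes, plk-1, the neuropeptide gene nlp-56, the immunoglobulin-domain gene oig-2 and the cohesin release factor gene wapl-1 have symbols.

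In long regulatory regions the embryo-high sites stood among sites with small gaps. At mbl-1, which encodes the muscleblind splicing factor, 3 of 12 shared sites were embryo-high, with embryo percentiles of 48.9, 46.5 and 58.9 against L1 percentiles of 9.12, 1.52 and 26.3. The strongest mbl-1 sites ranked alike, at 94.6, 96.8 and 96.0 in the embryo and 94.6, 96.6 and 96.5 in L1. The FOXO factor gene daf-16, the output of insulin signalling that is required to survive L1 arrest, had 1 embryo-high site among 15. That intron site at chrI:10768781-10768930 stood at 66.0 in the embryo and 7.95 in L1, while the gaps of the other 14 lay between -5.50 and 21.9. At spe-40, 3 of 4 shared sites were embryo-high, within chrIV:3752361-3753730. The DNA repair nuclease gene ercc-1 had 2 of 6, the DM-domain gene dmd-7 2 of 8, chdp-1 2 of 6, and dos-2 2 of 3, the last with gaps of 39.0 and 43.5.

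Some genes carried sites that shifted in opposite directions. At hmr-1, the classical cadherin of epithelial junctions, the site at chrI:11137501-11137650 stood at 41.9 in the embryo and 1.45 in L1, and its neighbour at chrI:11137041-11137190 at 16.5 in the embryo and 54.0 in L1. An intron site of elt-3, a GATA factor of the epidermis, stood at 66.2 in the embryo and 32.5 in L1, and its site 142 bp from the gene at 10.4 in the embryo and 61.6 in L1. At egl-8, a phospholipase C β, 2 sites were embryo-high (46.3 and 49.7 in the embryo, 13.8 and 4.28 in L1) and a site between them was L1-high (5.25 in the embryo, 52.3 in L1). The even-skipped homologue vab-7 and the TFEB homologue hlh-30 each had 1 site of either kind, with gaps of 35.5 and -54.4 at vab-7 and of 36.0 and -31.3 at hlh-30. The lysosome and starvation regulator hlh-30 had 11 shared sites in all.

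**Figure D4:**
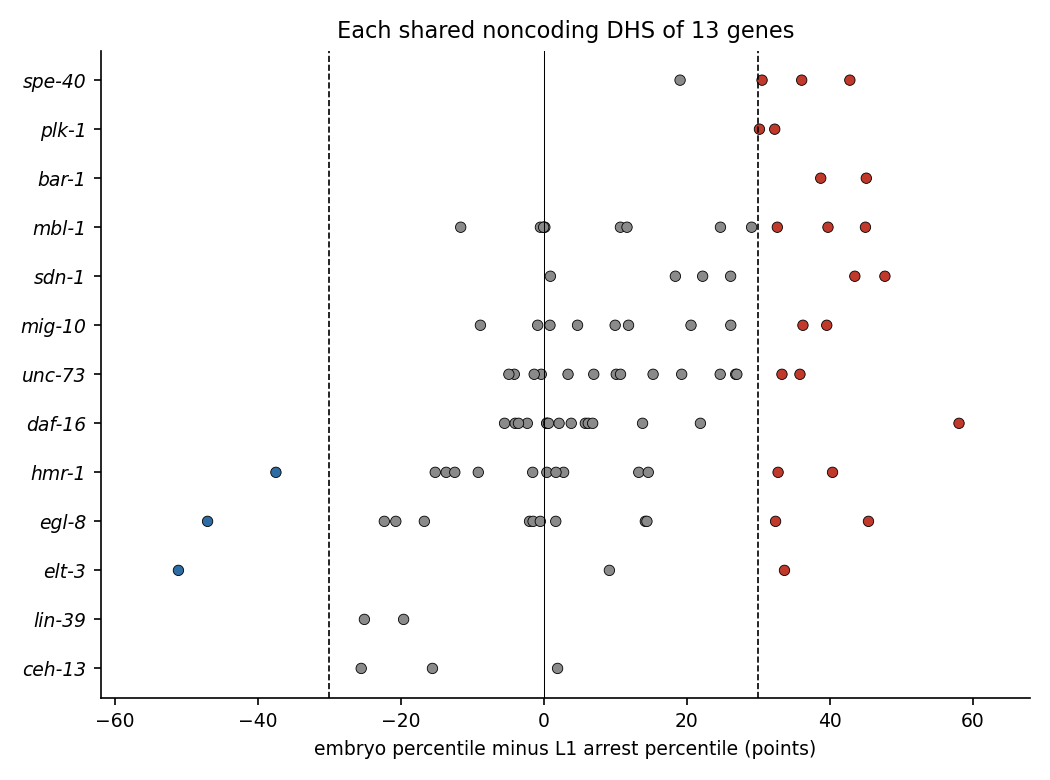
Gap in percentile points (embryo minus L1 arrest, horizontal axis) of every shared noncoding DHS of 13 genes, with 1 row per gene and 1 point per site, dashed lines at 30 and -30, embryo-high sites in red, L1-high sites in blue and other sites in grey. Both sites of bar-1 and of plk-1 lie right of 30, hmr-1, egl-8 and elt-3 have sites beyond both lines, and lin-39 and ceh-13 have none beyond either.

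Gene groups were compared by counts, beside 4.91% of all noncoding pairs that were embryo-high and 9.46% that were L1-high. The lists share genes, and none of the differences was tested. The cell cycle and mitosis list had 7 embryo-high sites among 50 (14.0%) and 2 L1-high sites (4.0%), with a median gap of 5.28 against 0.160 over all noncoding pairs. The 7 sites belonged to 6 of its 24 genes. The site 217 bp from cdk-4, the G1 cyclin-dependent kinase gene, stood at 68.1 in the embryo and 18.4 in L1 and was its only shared site. A site 1781 bp from the phosphatase gene cdc-25.2 stood at 75.2 in the embryo and 41.3 in L1, and a site 216 bp from the phosphatase gene cdc-14 at 32.2 in the embryo and 1.22 in L1.

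Wnt pathway genes had 7 embryo-high sites among 59 (11.9%) and 2 L1-high sites (3.39%), with a median gap of 8.52, the largest of the 29 lists. Beside the 2 bar-1 sites, the site 654 bp from the Frizzled receptor gene lin-17 stood at 78.3 in the embryo and 35.2 in L1. An intron site of the Ror receptor gene cam-1 stood at 50.4 in the embryo and 8.41 in L1, but the gene's median gap over 5 sites was 1.60. For the Nemo-like kinase gene lit-1, 1 of 10 shared sites was embryo-high (47.6 in the embryo, 15.9 in L1).

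Axon guidance genes had 15 embryo-high sites among 148 (10.1%) and 5 L1-high sites (3.38%), at 12 of 41 genes, with a median gap of 7.0. At sdn-1, the syndecan, 2 of 6 shared sites were embryo-high, an intron site (52.6 in the embryo, 4.82 in L1) and a site 327 bp away from the gene (54.5 in the embryo, 11.0 in L1), while the site at the gene's edge ranked at 80.3 in the embryo and 79.4 in L1. The lamellipodin homologue mig-10 had 2 of 10 sites embryo-high, with gaps of 36.3 and 39.6. The guanine nucleotide exchange factor gene unc-73 had 2 of 15, with gaps of 33.3 and 35.8, and the kinase gene dlk-1 had 1 of 5, with a gap of 47.2.

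Neuron identity factors had 10 embryo-high sites among 104 (9.62%) and 4 L1-high sites (3.85%), at 10 of 32 genes. An intron site of the homeobox gene cog-1 stood at 40.8 in the embryo and 1.37 in L1, and an intron site of the ETS factor gene ast-1 at 35.3 in the embryo and 1.14 in L1. The zinc finger gene die-1 and the RFX factor gene daf-19 had 1 site of either kind each. Outside that list, cfi-1, an ARID factor of neuron subtypes, had 2 of 4 shared sites embryo-high, at 54.8 and 74.4 in the embryo against 4.47 and 44.3 in L1, and between them a site that ranked at 81.9 in the embryo and 86.1 in L1. Pan-neuronal genes, which mark mature neurons, stood near the background, with 3 embryo-high sites among 56 (5.36%), 3 L1-high sites and a median gap of -2.31. Their 3 sites belonged to sng-1, ehs-1 and unc-10.

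Further lists had shares above 9%. Hypodermis and cuticle genes had 7 embryo-high sites among 62 (11.3%), including a site 93 bp from the cuticlin gene cut-2 (55.4 in the embryo, 15.4 in L1) and a site of the collagen gene dpy-3 (52.7 in the embryo, 0.634 in L1), whose other 3 shared sites had gaps of -6.35 to -24.1. The ceh homeobox genes had 6 among 55 (10.9%), at ceh-1, ceh-38, ceh-44, ceh-45 and ceh-89 among others. Neuropeptide genes had 8 among 86 (9.30%) but also 11 L1-high sites (12.8%). The site 87 bp from nlp-34 stood at 61.2 in the embryo and 13.2 in L1.

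Early lineage factors had 4 embryo-high sites among 58 (6.90%) and 3 L1-high sites, with a median gap of 5.65. Those sites lay at elt-3 and vab-7, described above, at the T-box gene tbx-8 (56.6 in the embryo, 14.2 in L1) and at the SoxC gene sem-2 (47.8 in the embryo, 10.6 in L1). EGF, FGF and Ras genes had 4 among 60 (6.67%), of which 2 lay at the FGF gene let-756 and others at sem-5 and gap-2. Body wall muscle genes had 5 among 89 (5.62%) and 1 L1-high site, with 2 intron sites of the twitchin gene unc-22 and sites at ttn-1, unc-68 and unc-87.

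Adhesion and morphogenesis genes had 6 embryo-high sites among 151 (3.97%) and 8 L1-high sites. Of the 6, 2 lay at hmr-1 and 2 at fmi-1, the Flamingo cadherin. Potassium channel genes had 6 among 120 (5%) and 6 L1-high sites. Hedgehog-related genes had 4 among 87 (4.60%) and 2 L1-high sites. Cilia genes had 3 among 44 (6.82%) and 4 L1-high sites. Heterochronic and molting regulators had 3 among 70 (4.29%) and 4 L1-high sites. Ribosomal protein genes had 2 among 29 (6.90%), at rpl-3 and rpl-33, and 1 L1-high site. Chromatin regulators had 2 among 49 (4.08%), at nurf-1 and at sdc-3, a dosage compensation gene, and 5 L1-high sites (10.2%).

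Further lists lay under the background of 4.91%. Chemoreceptor genes had 11 embryo-high sites among 333 (3.30%) and 63 L1-high sites (18.9%), with a median gap of -5.45, the lowest of the 29 lists. Nuclear hormone receptor genes had 6 among 220 (2.73%), 2 of them at nhr-3, and 24 L1-high sites (10.9%). Intestine genes had 1 among 39, at eps-8, C-type lectin genes 1 among 80, at clec-198, and maternal and germ granule genes 1 among 33, at par-1. Starvation and energy regulators had 4 among 100 (4.0%), at daf-16, hlh-30, rict-1 and tax-6, and 9 L1-high sites (9.0%).

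The lists of 5 further groups held no embryo-high site. Their shared sites were 61 for the collagen genes of the col family, 35 for pharynx genes, 26 for Notch pathway genes, 21 for Hox genes and 20 for histone genes. Over all noncoding pairs 4.91% were embryo-high, so lists of these sizes would hold only a few such sites at that share. The absence of embryo-high sites from these lists was not tested. Enhancers of the Hox genes lin-39 and ceh-13 were used by the study to choose the DNase I level of each sample. At lin-39 the 2 shared sites stood at 32.5 and 6.43 in the embryo against 52.1 and 31.5 in L1, and at ceh-13 the 3 shared sites had gaps of -15.6, 1.92 and -25.6.

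**Figure D5:**
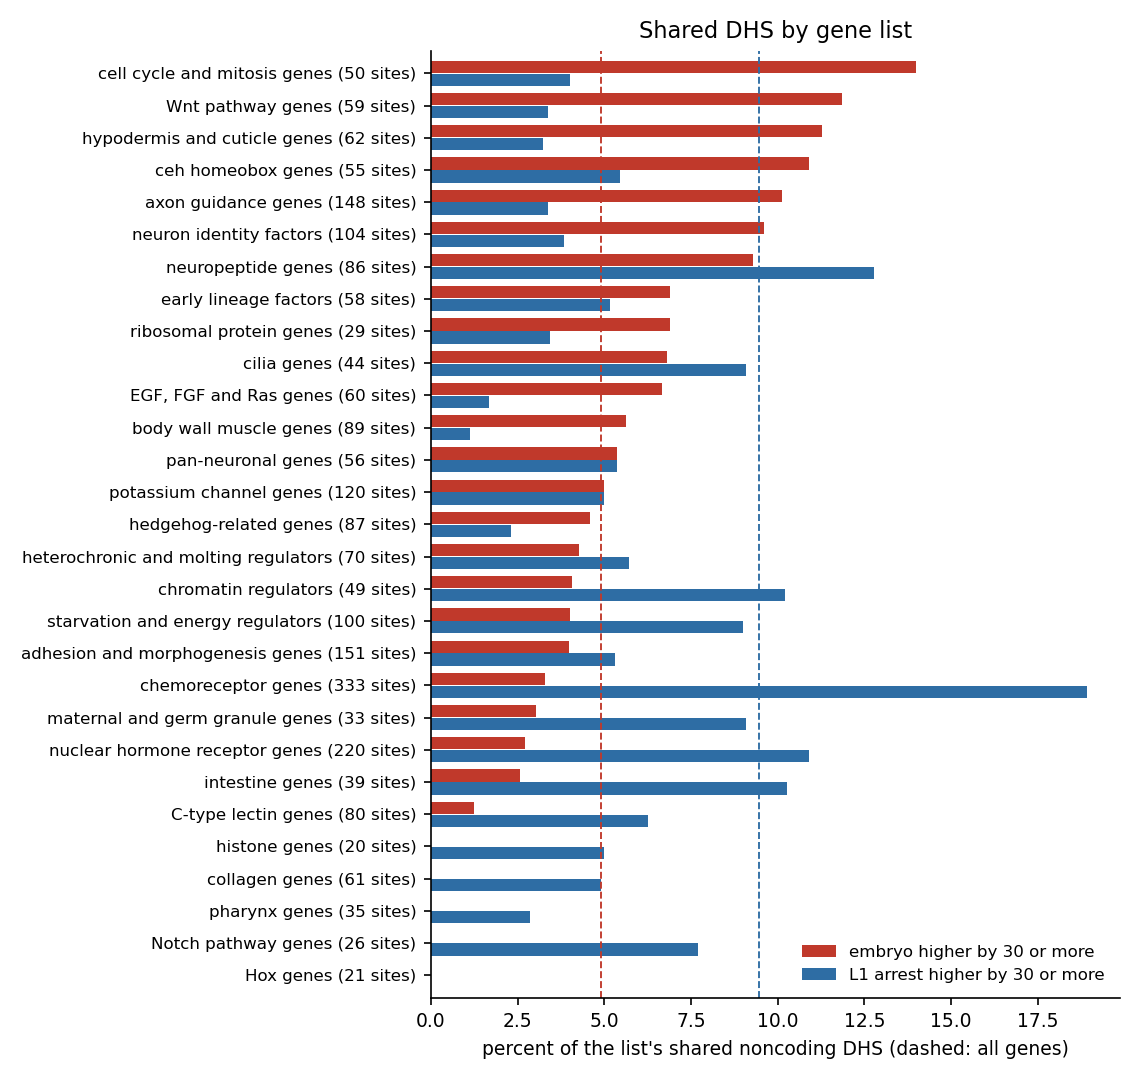
Percent of the shared noncoding DHS of each of 29 gene lists that were embryo-high (red) or L1-high (blue), with the number of sites in brackets and dashed lines for all genes (4.91% and 9.46%). Cell cycle genes lead the embryo-high shares with 14.0% of 50 sites, chemoreceptor genes the L1-high shares with 18.9% of 333, and the 5 lists at the bottom have no embryo-high site.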

How the data were processed

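DNase-seq libraries came from 4 embryo and 5 L1 arrest replicates, and the lists are merged per stage. Bowtie 1.0.0, FastQC, SAMtools and ce10 are named in the submitters' processing notes. Per the series design text, the authors called peaks with HOTSPOT version 3 over 150 bp, filtered them at an IDR of 0.1 and removed repeats and blacklisted regions. Exonic meant 75% in an exon, promoter under 300 bp from the start codon, and footprints of 6 to 40 bp were called with DNase2TF at an FDR of 0.05, per the same text. The score of each DHS is as deposited by the authors, with no statement of its scaling. The distance to a gene is also the authors' deposited value.

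Sites were paired by their largest overlap (at least 1 bp). Percentiles are mean ranks among the pairs from 0 to 100. Locations follow the deposited noncoding list and its gene table: a site absent from that list was counted as exonic. Gene-near sites lie within 300 bp of a gene by the deposited distance, which runs to either end of the gene, so they are not the promoters of the design text. Overlapping footprints were merged, leaving 57306 embryo and 33330 L1 footprints from 125825 and 79107 entries. Of 7796 genes, 3791 had a symbol in the deposited table and 737 more through the WBcel235 RefSeq table, used for names only. The score files give no read counts, and raw reads were not used here. Shares have 95% exact binomial intervals for counting error. Pairing was checked on simulated data in which each site had a single possible partner, so ambiguous overlaps were not checked. Python 3.11.15, numpy 2.4.6, pandas 2.3.3, SciPy 1.17.1 and matplotlib 3.10.9 were used.

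The sites and the 29 gene lists were chosen with earlier results of these data known, and 2 list patterns were corrected after their contents were seen. Genes were named by rule: lin-39 and ceh-13, the 20 widest noncoding gaps with a symbol, and the sites beside the limit. The rule added the 10 genes with a symbol and most embryo-high sites, and up to 4 genes per list. Ties were taken in alphabetical order, so some genes with as many embryo-high sites are not named. Some genes chosen by the rule are left out for brevity. Other genes are named as picked after their values were seen or complete a count. Alternatives changed the gap, overlap, ranking, width, chromosomes and score range. No sequence is shown.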

Additional observations from a re-analysis of the deposited data

How the results depend on the processing

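Of 63 values under 8 alternative settings, 50 stayed within their limits. The limits were the 95% exact binomial interval for each share, and a fixed factor either way for the number of sites. Settings of overlap and width kept nearly the same sites (1089, 1159 and 1154), so little movement could occur under them. The number of sites, 1160, was 2784 at a gap of 20 points and 387 at 40 points, 5784 with percentiles among all DHS of each stage, and 229 among pairs with summed percentiles at or above the median. In that upper range the shares moved to 30.6% exonic, 15.3% gene-near, 27.1% intergenic and 15.7% on X, and footprints to 94.97% in the embryo and 73.0% in L1. At 40 points the gene-near share was 10.1% and the share with an L1 footprint 65.0%. Without chromosome X the intergenic share was 20.3%. The causes were not tested.

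No paired analysis was possible because the lists are merged over replicates, and embryo and L1 replicates carry different letters. Leaving out a replicate was not run for the same reason. Read length differs between libraries and cannot be separated in merged lists. In the upper range of summed percentiles all pairs were 32.4% exonic, 28.7% intergenic and 17.2% on X. The exonic, intergenic and X shares of the embryo-high sites were there each slightly below those of all pairs. Their intervals for counting error were 24.7 to 37.0, 21.4 to 33.3 and 11.3 to 21.1. Each interval held the share of all pairs, so no difference in these shares can be read from this range as a whole.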
